A study of Mus musculus with 16 samples.

Results

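Cxcl9, Cxcl10 and Cxcl11, the ligands of the chemokine receptor CXCR3, were described across 8 groups of mouse bone marrow derived macrophages (BMDMs). They were taken by symbol from the gene count matrix, where they were 3 of 22287 genes, by a rule that uses the symbol alone. Bone marrow cells of C57BL/6J mice aged 8 weeks were grown for 7 days with GM-CSF (GM) or M-CSF (M), on tissue culture treated dishes (TC) or on untreated dishes (noTC). Each kind of culture was sequenced at steady state and after LPS for 3 h, which gave the groups GM-TC, GM-noTC, M-TC, M-noTC, GM-TC-LPS, GM-noTC-LPS, M-TC-LPS and M-noTC-LPS, with 2 libraries each and 16 in all. The design therefore asked what the growth factor, the dish surface and LPS each did to these transcripts. The study calls the libraries biological replicates, and no source used here says that they came from separate mice, so p-values measure the spread between these libraries.

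CXCL9, CXCL10 and CXCL11 are small secreted proteins that draw activated T cells and NK cells, which carry CXCR3, into inflamed tissue. CXCL10 was found as a protein induced by interferon gamma, and CXCL9 as a monokine induced by the same interferon. In macrophages LPS acts through TLR4: NF-kB is activated directly, while the adaptor TRIF and the factor IRF3 switch on interferon beta, which feeds back on the same cells through its receptor. Promoters of this family are known to answer to both inputs.

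The 3 genes lie side by side on the minus strand of chromosome 5. In the GRCm38 annotation (GENCODE M21), Cxcl9 (ENSMUSG00000029417) spans chr5:92321347-92328079, Cxcl10 (ENSMUSG00000034855) spans chr5:92346638-92348889 and Cxcl11 (ENSMUSG00000060183) spans chr5:92359544-92365485. Cxcl9 and Cxcl10 are annotated as protein coding. Cxcl11 is annotated as a polymorphic pseudogene, since the C57BL/6J sequence carries a frameshift known to prevent the chemokine from being made, so its values here are those of a transcript only. Art3, on the opposite strand, shares 133 exon bases with Cxcl10 but held only 33 counts over all 16 libraries. Gm2673, a processed pseudogene on the opposite strand, shares 1582 exon bases with Cxcl11 and was not analysed here, and whether counting used strand is not given in the sources used here, so reads of the overlapping parts cannot be assigned to a strand.

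The promoters of Cxcl9 and Cxcl10 are shown because the expression of both genes turned on LPS. Cxcl11 also rose with LPS, but the set of promoters used held no entry for it. The 250 bases before each start site were taken from RefSeq (GRCm38.p6, minus strand, 5' to 3'): chr5:92328080-92328329 for Cxcl9 and chr5:92348890-92349139 for Cxcl10. Capitals mark the motifs that were searched and found.
Cxcl9: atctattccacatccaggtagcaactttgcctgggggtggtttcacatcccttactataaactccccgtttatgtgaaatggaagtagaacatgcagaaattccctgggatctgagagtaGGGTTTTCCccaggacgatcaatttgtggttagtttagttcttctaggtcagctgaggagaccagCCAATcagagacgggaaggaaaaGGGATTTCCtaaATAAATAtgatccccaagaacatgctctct
Cxcl10: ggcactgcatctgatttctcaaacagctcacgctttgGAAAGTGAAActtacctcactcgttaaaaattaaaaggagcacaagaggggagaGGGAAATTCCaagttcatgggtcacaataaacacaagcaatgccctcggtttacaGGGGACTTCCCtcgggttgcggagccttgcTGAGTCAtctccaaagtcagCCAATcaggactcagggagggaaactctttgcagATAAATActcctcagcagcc

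The motifs were searched on both strands of these windows, and positions were counted back from the start site, the last base before it being -1. The short kB motif GGGNNTTCC, a form of the NF-kB site, stood at -130 (GGGTTTTCC) and -42 (GGGATTTCC) in Cxcl9 and at -103 (GGGACTTCC) in Cxcl10. It was found in 4.98% of 32851 promoters of the same table. The longer kB consensus, found in 7.25% of promoters, was met in Cxcl10 at -159 (GGGAAATTCC) and at -104 and -103, where it overlaps the short motif. The core of the interferon stimulated response element (ISRE) stood at -213 (GAAAGTGAAA) in Cxcl10 and in 2.98% of all promoters. It was not found in the Cxcl9 window. The interferon gamma activated site (GAS), searched as TTCNNNGAA and present in 7.02% of promoters, was found in neither window. An AP-1 motif, TGANTCA, was at -74 in Cxcl10 and in 6.75% of promoters. Both windows held CCAAT (33.8% of promoters) and ATAAATA (5.17%). The longest run shared by the 2 windows was CAGCCAATCAG, which begins at -68 in Cxcl9 and at -57 in Cxcl10 and is present in 0.755% of promoters. These matches describe letters, and binding was not measured.

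Libraries held 17527802 to 31458363 counts. The 2 GM-TC libraries differed from each other more than the pair of any other group. Their chi-square per gene was 12.2, against 1.90 (GM-noTC) to 4.87 (M-TC-LPS) elsewhere. All 7 macrophage markers were present in every group, with a summed level of 18042.5 to 45393 CPM, the count of a gene scaled to the size of its library (the sums here are without TMM factors). Of 7 T and NK cell markers, Cd3e and Ncr1 were at 0 in every library and the sum was at most 1.84 CPM, while 4 dendritic cell markers summed to 12.6 to 57.6 CPM in GM and 0.748 to 3.17 CPM in M libraries. The steady state libraries stood apart in 2 ways. The 4 TC steady state libraries held 4 heart muscle genes at a summed 15.0 to 61.5 CPM, against at most 0.181 CPM in the other libraries. The 4 noTC steady state libraries held genes that were nearly absent on TC at a small share of their level in other libraries, given beside the dish comparison. The part of either in the results was not tested beyond the values given, and in bulk samples fewer cells of a type and less RNA per cell cannot be told apart.

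Cxcl10 had the highest level per kilobase of the 3 transcripts in every group, and it ran from single counts to 0.874% of a library. In TMM scaled CPM, used for the levels of single genes, the GM-TC libraries held Cxcl10 at 0.353 and 0.685 (7 and 17 counts), GM-noTC at 29.3 and 26.9, M-TC at 23.5 and 26.7, and M-noTC at 42.4 and 38.2. After LPS the GM-TC-LPS libraries gave 3758 and 3931, GM-noTC-LPS gave 3971 and 3922, M-TC-LPS gave 10507 and 10699, and M-noTC-LPS gave 10145 and 10604. Every LPS library stood above every steady state library, every M-LPS library above every GM-LPS library, and within each growth factor the dishes overlapped after LPS. GM-TC stood below all other groups.

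Cxcl9 was near the limit of detection at steady state. GM-TC libraries held 0 and 4 counts (0 and 0.161 CPM, where 3 counts in a library equal 0.136 CPM on average over the group), M-TC 0.479 and 0.673 CPM, GM-noTC 1.55 and 1.11 CPM, and M-noTC 1.38 and 1.23 CPM. After LPS the GM-TC-LPS libraries gave 55.0 and 58.2 CPM, GM-noTC-LPS gave 70.8 and 64.9, M-TC-LPS gave 411 and 499, and M-noTC-LPS gave 570.1 and 556. The 4 LPS groups did not overlap and ran in the order M-noTC, M-TC, GM-noTC, GM-TC, while GM-noTC and M-noTC overlapped at steady state.

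Cxcl11 showed the same order of LPS groups as Cxcl9. It had 0 counts in all 4 TC steady state libraries, which allowed up to 0.136 CPM in GM-TC and 0.116 CPM in M-TC (3 counts per library, as the mean of both, counting error only). GM-noTC held 3 and 2 counts and M-noTC 6 and 7 counts. After LPS the GM-TC-LPS libraries gave 4.50 and 5.52 CPM, GM-noTC-LPS gave 7.06 and 7.57, M-TC-LPS gave 46.0 and 56.0, and M-noTC-LPS gave 71.1 and 68.0. The LPS groups again did not overlap.

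**Figure D1:**
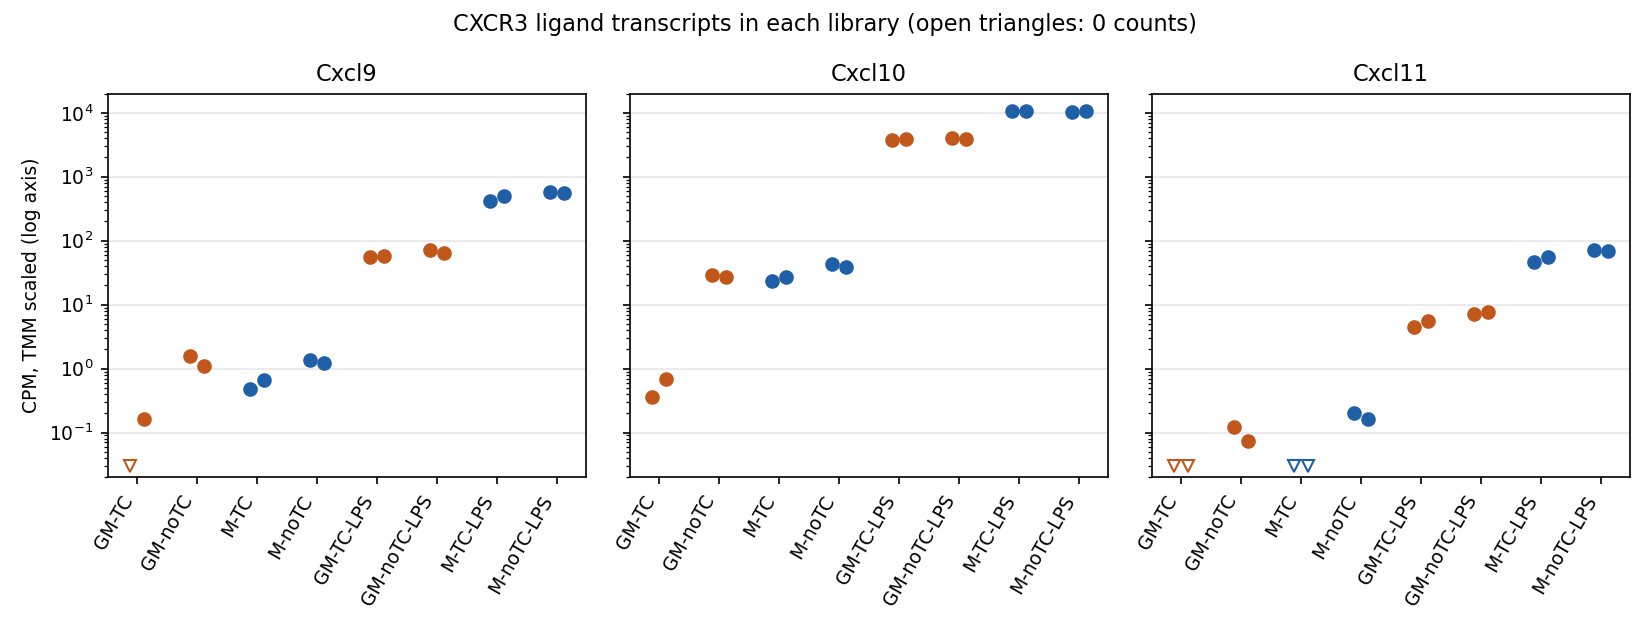
Level of each CXCR3 ligand in each of the 16 libraries, in TMM scaled CPM on a log axis, with GM groups in orange and M groups in blue and open triangles for libraries with 0 counts. All 3 genes were higher in every LPS library than in any steady state library, and the M-LPS points lie above the GM-LPS points, with Cxcl10 at 3758 to 3971 CPM in GM and 10145 to 10699 CPM in M.

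LPS raised all 3 ligands in all 4 kinds of culture. A gene was called when edgeR's quasi-likelihood test gave a Benjamini-Hochberg adjusted p below 0.05 over 12514 genes, and in the direction of the rise 3 of 3 ligands were called where the share of all genes called was 32.8% for GM-TC, 33.6% for GM-noTC, 37.6% for M-TC and 36.4% for M-noTC. Cxcl10 rose by log2 fold changes of 12.79 ± 0.12 (SE) for GM-TC, 7.14 ± 0.08 for GM-noTC, 8.72 ± 0.08 for M-TC and 8.01 ± 0.08 for M-noTC (n = 2 against 2, edgeR adjusted p from 7.93e-27 in GM-TC to 1.53e-25 in GM-noTC). In GM-TC it was 4th of the 12514 genes by the size of its rise. The fold there rested on 24 steady state counts, with a 95% counting interval of 4812 to 11175. The edgeR test gives no SE, so each SE here is the log2 fold change over the square root of its F statistic. Intervals called edgeR intervals, and other 95% intervals of log2 values, were built from such SEs. That of 5990 to 8387 was narrower than counting error alone, so the SE understates the uncertainty.

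On the log2 scale Cxcl9 rose by 5.68 ± 0.15 with GM-noTC, 9.60 ± 0.15 with M-TC and 8.76 ± 0.13 with M-noTC. With 68, 30 and 94 steady state counts, 95% counting intervals of the folds were 40.5 to 66.4, 545 to 1155 and 356 to 539. The edgeR intervals, 41.3 to 63.5, 625 to 968 and 359 to 523, were narrower, so these SEs are too small. In GM-TC the summed counts went from 4 to 2316, a ratio of 632 after scaling by library size with TMM factors, with a 95% counting interval of 247 to 2322. Cxcl11 was at least 36.8-fold higher with LPS in GM-TC and at least 439.5-fold higher in M-TC, both against a floor of 3 counts in each steady state library. On noTC dishes it rose by 6.16 ± 0.32 in GM and 8.56 ± 0.18 in M on the log2 scale. These SEs are too small for 5 and 13 steady state counts. The 95% counting intervals of the folds were 32.0 to 234 in GM and 227 to 732 in M. The folds on noTC rest on the small steady state levels described further on: once the shared fraction had been taken off these libraries, Cxcl10 rose by 12.45 in GM-noTC and 9.04 in M-noTC, and Cxcl9 by 8.27 and 10.18, from residues of 0 to 36 counts in GM-noTC.

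With LPS, M-BMDMs held more of every ligand than GM-BMDMs on either dish. The 3 ligands were all lower in GM, where 32.9% of genes were called lower on TC and 32.6% on noTC. Cxcl9 differed by -3.01 on the log2 scale (95% interval -3.19 to -2.83) on TC and -3.05 (-3.23 to -2.88) on noTC, that is 8.03-fold and 8.30-fold higher in M. Cxcl11 differed by -3.34 (-3.59 to -3.08) and -3.25 (-3.48 to -3.02), 10.1-fold and 9.50-fold higher in M. The difference of Cxcl10 was smaller, -1.46 (-1.58 to -1.34) and -1.39 (-1.51 to -1.27), 2.76-fold and 2.63-fold higher in M. The edgeR adjusted p of these 6 values lay between 2.77e-18 for Cxcl9 on noTC and 2.98e-15 for Cxcl11 on TC. Counted from the gene most lowered in GM on TC, Cxcl11 was 135th, Cxcl9 161st and Cxcl10 773rd of 12514. The intervals of Cxcl9 and Cxcl11 overlapped on each dish, and that of Cxcl10 lay apart from both. The difference between genes was not itself tested. The difference between GM and M did not itself differ between the dishes for any of the 3 ligands, with the change of the log2 difference from TC to noTC at -0.05 (95% interval -0.29 to 0.20) for Cxcl9, 0.07 (-0.10 to 0.24) for Cxcl10 and 0.09 (-0.28 to 0.46) for Cxcl11. None of the 3 was called at an unadjusted p below 0.05 or by DESeq2, where edgeR called 10.6% of genes in either direction.

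**Figure D2:**
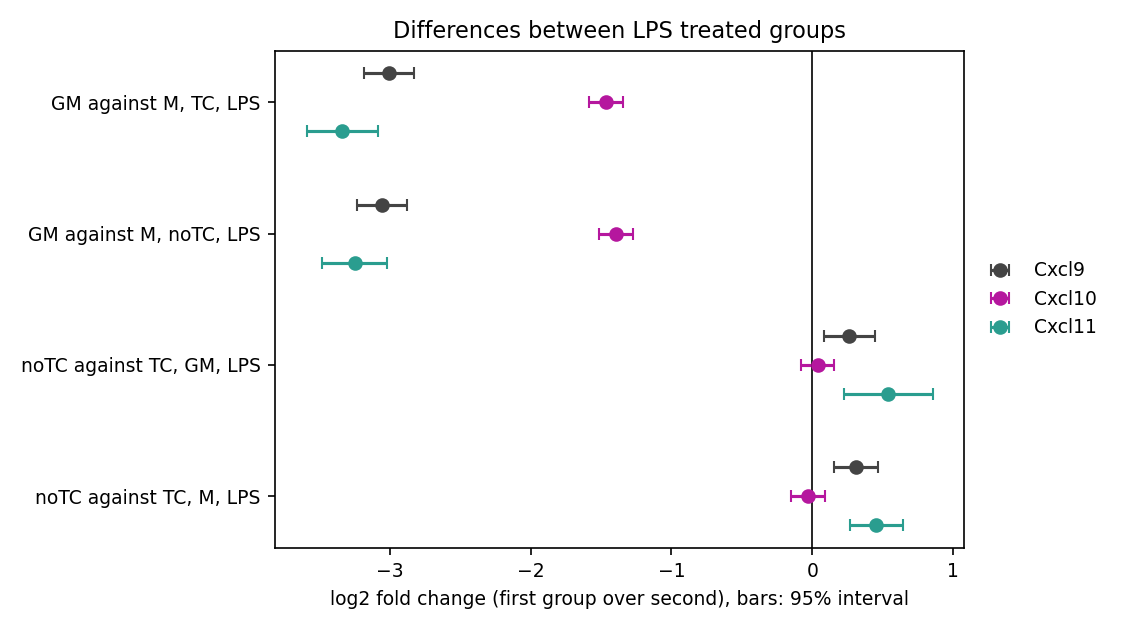
Log2 fold changes between LPS treated groups for Cxcl9, Cxcl10 and Cxcl11, as points with 95% intervals, 2 libraries a group. GM lay below M on both dishes for all 3 genes, by -3.34 to -1.39, while the noTC dish moved them by -0.03 to 0.54.

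At steady state the growth factor separated Cxcl10 strongly on TC dishes. In GM-TC, 2 of 3 ligands were called lower than in M-TC, where 28.9% of genes were called lower and 32.6% higher. Cxcl10 was 46.3-fold lower in GM-TC (log2 fold change -5.53, 95% interval -5.86 to -5.21, edgeR adjusted p = 3.12e-18). On 24 against 1303 counts, the 95% counting interval of the GM over M ratio was 0.0136 to 0.0319. That is wider than the edgeR interval of 0.0172 to 0.0271. With each library left out in turn, the log2 value ran from -6.13 to -5.20. Cxcl9 was lower by -2.62 (-4.12 to -1.13, edgeR adjusted p = 0.0032) on 4 against 30 counts, and Cxcl11 was at 0 in all 4 libraries and gave no fold. The Cxcl9 value was -1.83 (adjusted p = 0.048) without GM-TC replicate 1, and GM-TC had 0 counts without replicate 2, so its size in any comparison with GM-TC is uncertain. These TC libraries were the ones with the heart muscle genes, at 15.0 to 36.2 CPM in GM-TC and 35.1 to 61.5 CPM in M-TC, whose part in the difference was not tested.

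On noTC dishes the steady state difference was much smaller as measured. Cxcl10 was called lower in GM by -0.52 (-0.67 to -0.37, edgeR adjusted p = 1.14e-06), 1 of 3 ligands where 30.7% of genes were called lower. Cxcl9 differed by 0.03 (-0.55 to 0.61) and Cxcl11 by -0.85 (-2.33 to 0.63), and neither was called. After subtraction of the shared fraction from these libraries, Cxcl10 differed by -4.80. That value rests on residues of 36 and 0 counts in GM-noTC, and the share subtracted (0.675%) is close to the excess of Cxcl10 itself (0.668%), so the size is set largely by the subtraction.

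Both growth factors gave more ligand transcript on noTC than on TC at steady state. In GM, 2 of 3 ligands were called higher on noTC, where 4.69% of genes were: Cxcl10 by 5.69 (95% interval 5.37 to 6.01, edgeR adjusted p = 2.22e-16), 5th of 12514 genes, and Cxcl9 by 3.80 (2.58 to 5.02, edgeR adjusted p = 1.62e-04). For Cxcl10, with 24 counts in GM-TC, the 95% counting interval of the fold was 34.9 to 81.6. The edgeR interval of the fold, 41.4 to 64.6, was narrower than this counting error. The 5 counts of Cxcl11 against 0 were at or under the floor of 3 counts per library and gave no call (edgeR adjusted p = 0.153). In M, 3 of 3 were called higher, where 16.1% of genes were. Cxcl10 rose by 0.68 (0.53 to 0.83), Cxcl9 by 1.15 (0.44 to 1.87, edgeR adjusted p = 0.016), and Cxcl11 was at least 1.57-fold higher (13 counts against 0, edgeR adjusted p = 0.0088). The Cxcl9 call in M was lost without M-TC replicate 1 (adjusted p = 0.139) or M-noTC replicate 1 (0.061), and the Cxcl11 call without either M-TC library (0.058 and 0.065).

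The steady state excess on noTC was of the size of a small share of the other libraries. Reference genes were those under 1 CPM in both TC steady state libraries of a growth factor whose mean over 10 other libraries (all LPS libraries and the noTC pair of the other growth factor) reached 100 CPM. Many were inflammatory or interferon induced genes, among them Il6, Il12b, Nos2 and Cxcl1 with both growth factors and Oasl1 and Iigp1 in GM. The excess of the reference genes on noTC over TC was expressed as a percentage of that mean, in CPM without TMM factors. In GM this percentage had a median of 0.675% over 13 genes, none of them a CXCR3 ligand, with a range of 0.390% to 0.907%. The same percentage was 0.760% for Cxcl9, 0.668% for Cxcl10 and 0.512% for Cxcl11. In M the median was 0.608% over 18 genes (0.0084% to 0.845%), and the ligands stood at 0.540%, 0.446% and 1.17%, the last resting on 13 counts. All 3 ligands in GM, and Cxcl9 and Cxcl10 in M, thus lay within the range of the reference genes. Cxcl10 was not itself hardly expressed on TC in M, where M-TC held it at 23.5 and 26.7 CPM with TMM factors. The low end of the M range was Rbp4, and the next gene, Cd38, stood at 0.269%.

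With the median share taken off each noTC library, the steady state counts of Cxcl10 went from 718 and 727 to 36 and 0 for GM-noTC, and from 1260 and 1646 to 657 and 759 for M-noTC. The TC libraries held 7 and 17 counts with GM and 589 and 714 with M. Cxcl9 was left with 11 and 0 counts in GM-noTC and 17 and 18 in M-noTC. No ligand was then called between dishes at steady state (0 of 3 in GM and 0 of 3 in M, edgeR), with Cxcl10 at 0.39 in GM and -0.35 in M on the log2 scale. The share came from genes chosen as high in libraries that were mostly LPS treated, as the ligands were. A real rise of such genes on noTC would be subtracted too, so the lost calls cannot decide whether the rise was real. The TC libraries showed no such share: among genes whose mean in the other libraries was at least 100 CPM, each TC steady state library held 4 to 10 below 0.1% of that mean, and none of the 12 other libraries held any.

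**Figure D3:**
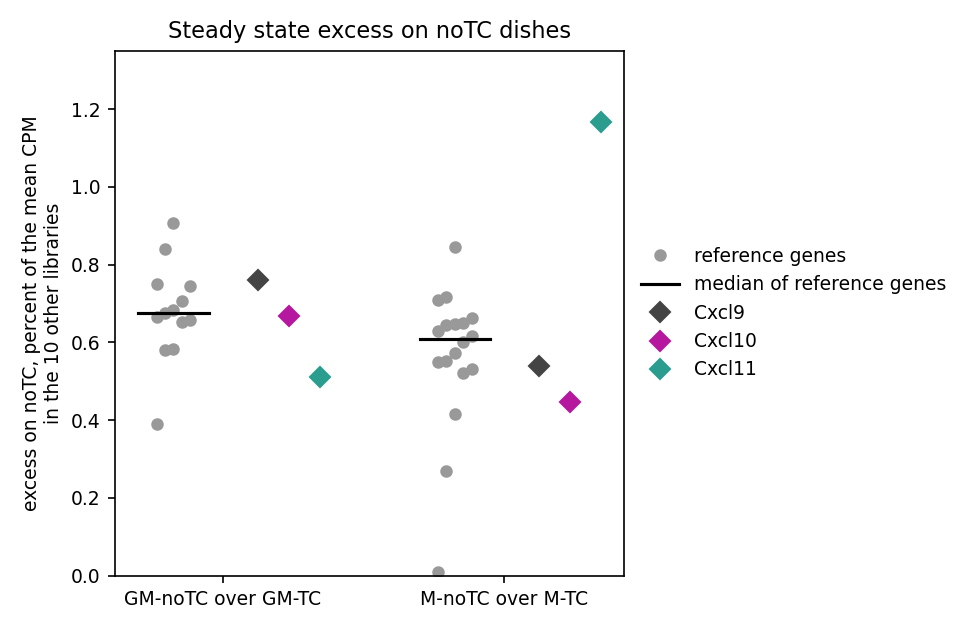
Excess of the noTC over the TC steady state group, as a percentage of the mean CPM (without TMM factors) in the 10 other libraries, for reference genes nearly absent on TC (grey points, with their median as a line) and for the 3 ligands (diamonds). Cxcl10 lay at 0.668% in GM and 0.446% in M, beside medians of 0.675% and 0.608%.

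With LPS the dish made little difference to the ligands. In GM, 0 of 3 were called by edgeR and 0 by DESeq2, where 2.8% of genes were called in either direction, and 2 of 3 had an unadjusted p below 0.05. Cxcl10 differed by 0.04 (95% interval -0.08 to 0.16), Cxcl9 by 0.26 (0.08 to 0.44, edgeR adjusted p = 0.138) and Cxcl11 by 0.54 (0.22 to 0.86, edgeR adjusted p = 0.063). The latter were called when genes with low counts were kept (adjusted p = 0.0062 and 0.0105). In M, 2 of 3 were called higher on noTC, where 10.4% of genes were called higher and 12.9% lower. Cxcl9 rose by 0.31 (0.15 to 0.47, edgeR adjusted p = 0.0050) and Cxcl11 by 0.45 (0.26 to 0.64, edgeR adjusted p = 0.0010), while Cxcl10 differed by -0.03 (-0.15 to 0.09). The Cxcl9 call was lost without M-TC-LPS replicate 1, the lower of its pair (0.18, adjusted p = 0.148), or without M-noTC-LPS replicate 1 (0.29, adjusted p = 0.051). Cxcl11 ranged from 0.32 to 0.60 over the libraries left out and stayed called.

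The size of the LPS response was also compared between groups. Of the tests of a difference between 2 responses, 1 of 3 ligands was called for growth factor by LPS on TC (41.1% of genes in either direction) and 3 of 3 on noTC (36.2%), 2 of 3 for dish by LPS in GM (0.783%) and 2 of 3 in M (10.6%), and 2 of 3 for dish by growth factor at steady state (11.2%). On TC the LPS rise of Cxcl10 was larger in GM than in M by 4.07 on the log2 scale, from a lower start to a lower end. On noTC it was smaller in GM by -0.87, and after the subtraction, which left 36 and 0 counts in GM-noTC, it was larger in GM by 3.41. Calls that rest on few counts were less stable: that of Cxcl11 for growth factor by LPS on noTC was lost when any of its 8 libraries was left out, that of Cxcl11 for dish by LPS in M when any M-TC, M-noTC or M-noTC-LPS library was, and that of Cxcl9 for dish by growth factor at steady state without GM-TC replicate 1, GM-noTC replicate 1, M-TC replicate 2 or M-noTC replicate 2 (adjusted p from 0.057 to 0.145).

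Per kilobase of spliced transcript, Cxcl10 exceeded Cxcl9 in every library in which both had counts, and the proportion differed with the growth factor after LPS. With lengths of 1094 bases for Cxcl10 and 2889 for Cxcl9, the ratio of levels per kilobase was 181 and 178 for GM-TC-LPS and 148 and 159.6 for GM-noTC-LPS. It was 67.5 and 56.7 for M-TC-LPS and 47.0 and 50.4 for M-noTC-LPS, with no overlap between GM and M. The ratio of Cxcl9 to Cxcl11 per kilobase stayed between 4.39 and 6.69 over the 8 LPS libraries, with a Cxcl11 length of 1581 bases (another annotated transcript has 3794).

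Over the 8 group means on the log2 scale, Cxcl9 and Cxcl11 followed each other most closely, with a root mean square difference of 0.80 after centring, against 1.18 for Cxcl9 and Cxcl10 and 1.92 for Cxcl10 and Cxcl11. The genes most like Cxcl9 by this measure were Itgb8, Cd69, Ifi205, Nos2 and Tnf (0.70 to 0.93). Those most like Cxcl10 were Ifi205, Rsad2, Cxcl2, Cmpk2 and Oasl1 (1.07 to 1.41), and those most like Cxcl11 were Shisa3, Itgb8, Cd69, Lhx2 and Adamts4 (0.52 to 0.74). Cd69 encodes an activation marker of lymphocytes, Nos2 the inducible nitric oxide synthase, and Rsad2 and Cmpk2 are neighbouring interferon induced genes. The likeness describes 8 points dominated by the LPS step. Cxcl11 held 0 to 13 counts in a steady state group, so its log2 values there depend largely on the prior count of 2. Of the genes most like it, Shisa3, Itgb8, Lhx2 and Adamts4 were also low, with highest group means of 61.1 to 83.5 CPM. Cd69 reached 1564 CPM.

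Ifnb1, which encodes interferon beta, differed from the ligands in its pattern. It rose with LPS in every kind of culture, with a mean of 6.80 CPM for GM-TC-LPS, 9.09 for GM-noTC-LPS, 6.71 for M-TC-LPS and 15.1 for M-noTC-LPS. On TC with LPS it differed between GM and M by 0.02 on the log2 scale and was not called, where Cxcl9 differed by -3.01, and on noTC it was lower in GM by -0.73. In M with LPS it was higher on noTC by 1.17, the dish and direction in which Cxcl9 and Cxcl11 were also called. Ifng, Ifna2, Ifna4 and Ifnl2 had too few counts to be tested.

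The genes that carry interferon and LPS signals were compared as lists, described by counts. LPS raised 9 of 9 interferon signalling genes, 7 of 7 NF-kB genes and 10 of 10 interferon stimulated genes on TC dishes with either growth factor (8 of 9, 7 of 7 and 10 of 10 when libraries were scaled by size alone), beside 32.8% of all genes higher in GM-TC and 37.6% in M-TC. With LPS on TC, GM was lower than M in 9 of 9 interferon signalling genes with a median of -0.47, in 7 of 7 NF-kB genes with a median of -0.70, in 5 of 5 feedback genes and in 8 of 10 interferon stimulated genes with a median of -0.66, where the median of all genes was 0.03 and 32.9% of genes were called lower and 33.9% higher. On noTC the counts were 8 of 9 (with Jak1 higher), 7 of 7, 5 of 5 and 9 of 10, with 32.6% of genes called lower and 33.5% higher. The 3 ligands had a median of -3.01 on TC, beyond each of the 10 interferon stimulated genes for Cxcl9 and Cxcl11, of which Ifit3 was the lowest at -1.53. Cxcl10, at -1.46, lay among them.

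Among single genes, Irf7, which amplifies the interferon response, was lower in GM with LPS on TC by -1.81, and Irf8, a lineage factor of macrophages and dendritic cells, by -1.29. Il10, the anti-inflammatory cytokine in the feedback list, was lower by -6.63. Of 9 genes from the LPS receptor to IRF3, 5 were lower and 2 higher in GM, and of 4 interferon receptor genes 3 were lower and 1 higher, beside 32.9% of all genes lower and 33.9% higher. The ELR CXC chemokines, which draw neutrophils through CXCR2, went the other way in 3 of 5 cases, with higher levels in GM of Cxcl3 by 2.97, Cxcl5 by 3.35 and Ppbp by 4.12, while Cxcl2 was lower by -0.61. Of 4 flanking genes tested, 2 were called lower in GM and 1 higher, beside 32.9% of all genes lower and 33.9% higher. Sdad1 was lower by -0.45 and Nup54 by -0.24, less than any of the ligands. Naaa was higher by 2.57 and Scarb2 was not called.

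At steady state on TC the interferon stimulated genes resembled Cxcl10. In GM-TC 9 of 10 were lower than in M-TC with a median of -3.41, beside 28.9% of all genes lower and 32.6% higher, Ifit3 at -5.24 and Ifit1 at -4.27, while Gbp2 was higher by 0.28. Irf7 was lower by -4.16 and Irf9 by -1.29, among 6 of 9 interferon signalling genes that were lower, while 2 were higher. Cxcl10, at -5.53, was beyond each of these. The likeness was weaker on noTC as measured, where Cxcl10 differed by -0.52. There 8 of 10 interferon stimulated genes were lower in GM and 2 higher, with a median of -2.04, beside 30.7% of all genes lower and 31.4% higher.

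In M with LPS, Cxcl9 and Cxcl11 were higher on noTC and most NF-kB genes lower, with 12.9% of all genes called lower and 10.4% higher. NF-kB genes were lower on noTC in 6 of 7 cases with a median of -0.30 (4 of 7 when libraries were scaled by size alone), and 3 of 5 ELR CXC chemokines were lower, among them Cxcl3 by -0.85. Of the interferon stimulated genes 3 were higher (Ifit3, Oasl1 and Cmpk2, by 0.15 to 0.30) and 2 lower, and Irf8 was higher by 0.36 where 4 of the 9 signalling genes were lower. These counts moved with the scaling. By library size alone, 4 interferon stimulated genes were higher and 1 lower, and 3 signalling genes were lower. With DESeq2 size factors, 2 interferon stimulated genes were higher and 2 lower, and 6 signalling genes were lower. Cxcl9 and Cxcl11 differed by 0.31 and 0.45 and Cxcl10, which was not called, by -0.03.

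The receptor and the proteins that act on these ligands were also measured. Cxcr3 transcripts were at 3.05 CPM in M-TC and 1.11 CPM in M-TC-LPS, against 0.045 and 0.026 CPM in GM, and the gene was called lower in GM at steady state and with LPS. Dpp4, the surface peptidase that trims the amino terminus of CXCL10, was higher in GM with LPS by 6.54 on TC and 7.11 on noTC, from 0.136 CPM in M-TC-LPS to 12.9 CPM in GM-TC-LPS. The sizes are uncertain, since M-TC-LPS and M-noTC-LPS held 5 summed Dpp4 counts each. Their means of 0.136 and 0.126 CPM lay under the floor of 3 counts per library, 0.161 and 0.152 CPM. Ackr3, a scavenging receptor for CXCL11, had at most 1 count in any LPS group and was not called between GM and M with LPS on either dish. At steady state Ackr3 was at 0.328 CPM in GM-TC and 1.39 CPM in GM-noTC against 0.020 and 0 CPM in M. T and NK cells, which carry CXCR3, gave at most 1.84 CPM of 7 markers in any library.

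**Figure D4:**
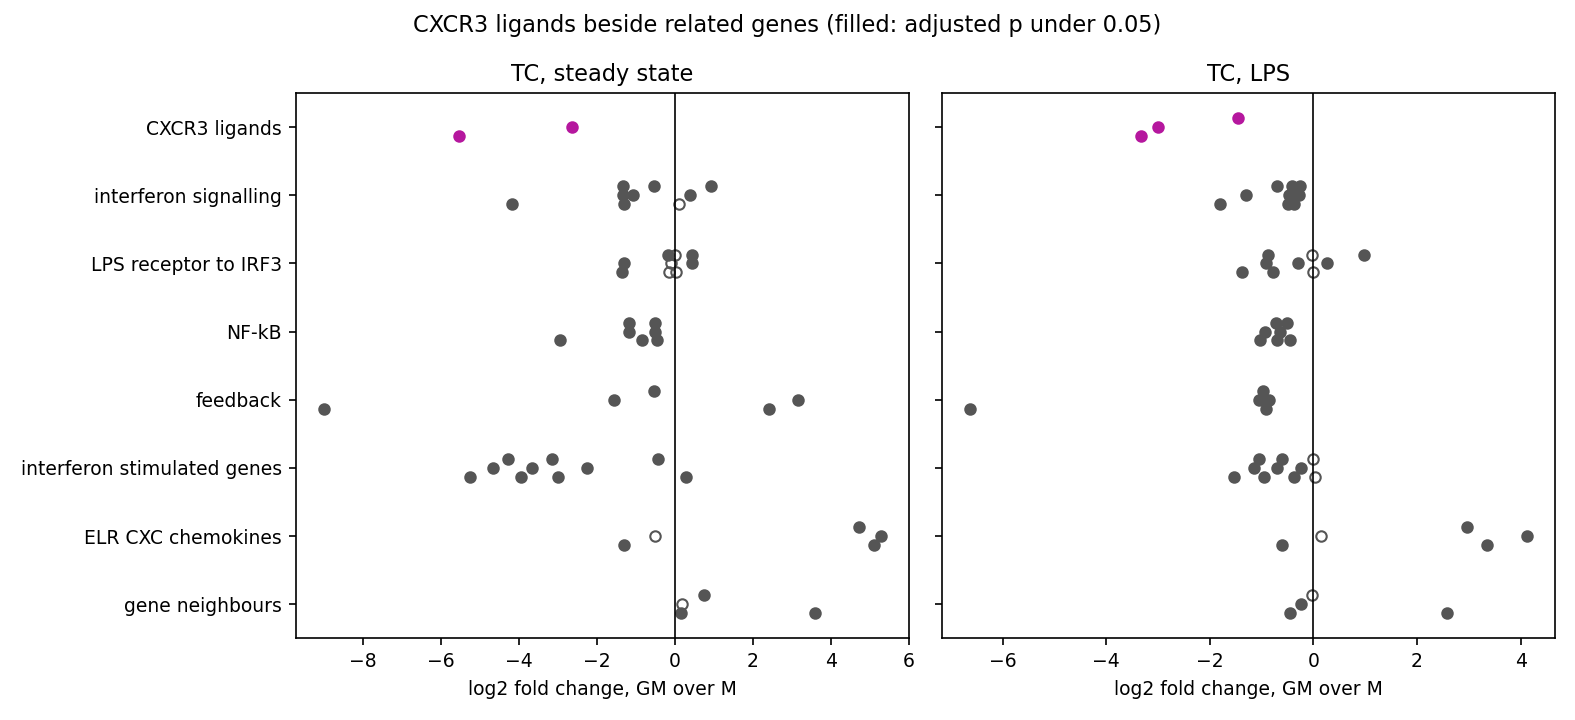
Log2 fold change of GM over M on TC dishes for the CXCR3 ligands (purple) and related genes (grey), at steady state and with LPS, each point a gene, filled where the adjusted p was under 0.05 and offset vertically only for legibility. With LPS, Cxcl9 and Cxcl11 lay at -3.01 and -3.34, while the interferon stimulated genes had a median of -0.66; Cxcl11 has no value at steady state, where all 4 libraries had 0 counts.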

How the data were processed

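RNA of 16 BMDM libraries was enriched for mRNA with oligo(dT) and sequenced on an Illumina instrument. The submitters' processing notes name fastp 0.18.0, Bowtie2 2.2.8, HISAT2, StringTie 1.3.1, RSEM, DESeq2 and edgeR, and the genome build is not given in the sources used here. The authors deposited expected counts per gene, of which 6.56% to 8.19% per library were not whole, and these were rounded. Libraries were normalised with TMM, genes with low counts were removed (12514 of the 16756 genes with a count remained) and all 8 groups were fitted with edgeR 4.0.16 in R 4.3.3, with a biological coefficient of variation of 4.75%. Comparisons of 2 groups (12) and tests of a difference (6) were adjusted over all genes tested. Alternatives were DESeq2 1.42.0, other scalings, no filter, fits of the compared libraries alone, a replicate block, subtraction of a shared fraction from the noTC steady state libraries, and leaving out each library. Intervals and floors from counts cover counting error only. Replicate numbers did not pair the libraries (correlations of deviations -0.064 to 0.020 over 12 comparisons), and no 2 libraries of a group agreed within sampling noise. The GM-TC pair was the furthest apart, while the fit estimated the spread jointly over all groups. Lengths are those of the annotated transcript with the most exons, retained introns left out. The tests were tried on simulated data. Named genes were the members, the genes of the lists on interferon signalling, NF-kB, feedback, LPS receptor to IRF3, interferon receptors, interferon stimulated genes, ELR CXC chemokines, CXCR3 and its ligands' modifiers and gene neighbours, and the 5 genes most like each member. The members and lists were chosen with earlier results of these data known.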

Additional observations from a re-analysis of the deposited data

Results flagged for a closer look

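Responses that differed between groups by a test of the difference itself (edgeR, adjusted over 12514 genes) were the following, and all but the first rest on steady state groups on noTC dishes, where genes nearly absent on TC stood at a small share of their level in other libraries. For Cxcl10 the LPS response on TC was larger in GM than in M by 4.07 on the log2 scale. On noTC it was smaller in GM by -0.87, as it was for Cxcl9 by -3.08 and for Cxcl11 by -2.40 (adjusted p = 0.044). In GM the response was smaller on noTC than on TC for Cxcl9 by -3.54 and for Cxcl10 by -5.65. In M it was smaller on noTC for Cxcl10 by -0.71, and for Cxcl11 the difference had an adjusted p of 0.041 with 0 counts in M-TC, so that no size is given. At steady state the rise on noTC was larger in GM than in M for Cxcl9 by 2.65 (adjusted p = 0.031) and for Cxcl10 by 5.01. After the shared fraction was subtracted, of the 9 values on noTC only that of Cxcl10 for growth factor by LPS was called, with a positive sign, on residues of 36 and 0 counts in GM-noTC.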

How the results depend on the processing

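The number of ligands called for LPS in each culture and for GM against M with LPS was 3 under every alternative run. Subtraction from the noTC steady state libraries left 0 of 3 ligands called for the dish at steady state in GM and in M, for dish by LPS in GM and in M, and for dish by growth factor at steady state, 1 for growth factor by LPS on noTC and 2 for the growth factor on noTC at steady state. The subtraction would also take off a real rise on noTC that the ligands shared with the reference genes. Under it, Cxcl9 and Cxcl10 turned to -0.26 and -0.35 for the dish in M at steady state and to 0.57 and 0.32 for dish by LPS in M, Cxcl10 and Cxcl11 to 3.41 and 0.82 for growth factor by LPS on noTC, and Cxcl9 to -1.15 for the growth factor on noTC at steady state. For the dish in GM with LPS, 2 were called with no filter and 1 with only the libraries of the comparison, a fit that also left 1 for dish by LPS in M and 1 for dish by growth factor at steady state. Scaling by library size alone moved the median of all genes by up to -0.83 for LPS (M-TC), and turned Cxcl9 to -0.26 for the growth factor on noTC at steady state, Cxcl10 to 0.056 for the dish in M with LPS, and Cxcl10 and Cxcl11 to -0.038 and -0.020 for dish by growth factor with LPS, none of them called. With a replicate block no count of ligands called changed, with 3 ligands called for GM against M with LPS and Cxcl9 at -3.00 on TC.

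Leaving out each library gave 1 to 2 ligands called for dish by growth factor at steady state, dish by LPS in M and the dish in M with LPS, and 1 to 3 for the dish in M at steady state. The Cxcl11 call for growth factor by LPS on noTC was lost with each of its 8 libraries left out in turn, and with scaling by library size alone. Values that changed sign ran from -1.18 to 3.79 for Cxcl9 in growth factor by LPS on TC (positive without GM-TC replicate 2), from -0.19 to 0.085 for Cxcl9 and -0.058 to 0.25 for Cxcl11 in dish by growth factor with LPS, from -0.23 to 0.25 for Cxcl9 in the growth factor on noTC at steady state, and from -0.061 to 0.0012 for Cxcl10 in the dish in M with LPS. The cause of these changes was not tested. Depth limits Cxcl9 and Cxcl11 at steady state, where 3 counts equal 0.0954 to 0.171 CPM in a library without TMM factors.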
